A study of Mus musculus with 2 samples.

Results

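The genes Cd4, Cd8a and Cd8b1, which encode the coreceptors of T cells, and Zbtb7b and Runx3, which encode transcription factors of the CD4 and CD8 lineages, were followed in single spleen cells. The 5 genes were chosen by symbol, and all 5 are rows of both deposited tables, which together list 30457 genes. The spleen cells came from female C57BL/6J mice that were 10 weeks old when Lewis lung carcinoma cells were injected under the skin. Every mouse received 200 μg of an antibody against CD4 on days 5 and 9, and 3 spleens taken on day 12 were pooled, frozen and thawed. A single cartridge of the BD Rhapsody microwell system was loaded with 2000 of these cells, and its capture beads were divided between amplification by TAS-Seq and by the manufacturer's whole transcriptome workflow (BD WTA). Each method thus has 1 library of the same cell pool, and no untreated spleen was part of the design. Antibodies against CD4 are used to deplete CD4 T cells, and what the treatment changed cannot be read from these libraries. With 1 library per method no test between them was possible. Every interval below is a 95% exact interval that covers counting error only, of cells for shares and of reads for levels. It leaves out the spread between libraries and amplifications, and for levels also that between cells. Reads were counted without molecular identifiers, so copies of a molecule count as separate reads. Beside a count of 0, the limit given is the share or level that 3 counts would make.

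CD4 and CD8 are surface proteins that bind the invariant parts of MHC class II and class I molecules and bring the kinase LCK to the T cell receptor. Most mature T cells of the spleen carry one coreceptor and not the other. CD8 on conventional T cells is a pair of an alpha chain, encoded by Cd8a, and a beta chain, encoded by Cd8b1, whereas alpha chains can also pair with each other. In the thymus ZBTB7B, also called ThPOK, directs cells to the CD4 lineage, while RUNX3 acts in the CD8 lineage, where RUNX factors silence Cd4 and Zbtb7b. RUNX3 is also known from NK cells and B cells.

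In the GRCm38 annotation of GENCODE vM21, Cd8b1 (chr6:71322788-71337494, plus strand) and Cd8a (chr6:71373427-71379173, plus strand) lie 35932 bases apart. Cd4 is on the same chromosome (chr6:124864692-124888221, minus strand), Zbtb7b on chromosome 3 (chr3:89377644-89394776, minus strand) and Runx3 on chromosome 4 (chr4:135120652-135177990, plus strand). Of the stretches of 31 bases in their transcripts, 0.273% for Cd4, 0.901% for Cd8a, 8.4% for Cd8b1, 2.74% for Zbtb7b and 1.36% for Runx3 also occurred in a transcript of another gene. RefSeq promoter sequences (GRCm38.p6, 250 bases before to 50 bases after a start site) were held for 3 of the 5 genes, with 5 entries in all. The core letters bound by RUNX factors, TGTGGT or TGCGGT on either strand, occurred in 22.4% of all 32851 promoter sequences of this length and in 1 entry each of Cd8a, Runx3 and Zbtb7b. These 3 entries are printed because RUNX factors act on the coreceptor and Zbtb7b genes, with the core letters or their complement in capitals.
Runx3 (chr4:135120395-135120694, plus strand): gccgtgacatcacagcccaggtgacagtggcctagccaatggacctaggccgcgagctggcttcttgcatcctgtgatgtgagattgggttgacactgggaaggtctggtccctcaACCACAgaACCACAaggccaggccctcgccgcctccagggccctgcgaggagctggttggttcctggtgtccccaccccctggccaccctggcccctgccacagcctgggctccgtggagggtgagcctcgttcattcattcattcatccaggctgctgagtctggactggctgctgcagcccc
Zbtb7b (chr3:89387622-89387921, minus strand): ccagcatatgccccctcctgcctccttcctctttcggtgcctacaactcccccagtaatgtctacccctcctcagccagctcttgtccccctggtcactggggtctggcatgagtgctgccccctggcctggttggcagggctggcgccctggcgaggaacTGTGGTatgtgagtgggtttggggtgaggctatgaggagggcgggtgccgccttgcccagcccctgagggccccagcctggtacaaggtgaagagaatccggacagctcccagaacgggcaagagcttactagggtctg
Cd8a (chr6:71373177-71373476, plus strand): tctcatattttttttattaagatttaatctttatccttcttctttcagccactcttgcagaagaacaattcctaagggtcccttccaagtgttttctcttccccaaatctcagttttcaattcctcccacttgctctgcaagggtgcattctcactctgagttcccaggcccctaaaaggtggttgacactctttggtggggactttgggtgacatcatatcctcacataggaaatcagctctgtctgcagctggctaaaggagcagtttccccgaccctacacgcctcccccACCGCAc
The Runx3 entry held 2 cores, whose first bases lie 134 and 126 bases before the start site, the Zbtb7b entry held 1 and the Cd8a entry held 1 downstream of its start. A match of letters is a description of the sequence and says nothing of binding in these cells.

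The TAS-Seq library held 736 barcodes and 38656790 reads, the BD WTA library 716 barcodes and 31608259 reads, and 0 barcodes occurred in both. After filtering on genes and mitochondrial reads, 732 and 708 cells remained, which were clustered without the 5 genes. A cluster of 233 TAS-Seq and one of 232 BD WTA cells was T-like by the markers Cd3e, Cd3d, Cd3g, Trac, Trbc2 and Lck, all 6 of which were raised. B-like clusters held 363 and 364 cells, and an NK-like cluster of 26 cells was named in the BD WTA library alone. A TAS-Seq cluster of 66 cells led by Il2rb, with all 6 T-cell markers raised, stayed unnamed. So did a BD WTA cluster of 86 cells led by Fyb, Id2 and Il2rb, with 4 of the T-cell markers raised. Unnamed too was a TAS-Seq cluster of 70 cells led by Marcks, with 5 of 6 B-cell markers raised. For calls per cell, every cell was thinned to 20000 reads, which left 222 of 233 and 215 of 232 T-like cells. A coreceptor was called with at least 5 of the 20000 reads, which is 250 CPM (reads of a gene per 1000000 reads), and a cell was Cd8 positive with that many reads of Cd8a or of Cd8b1.

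T-like cells of both libraries split into a Cd8 group and a smaller Cd4 group with almost no overlap. With TAS-Seq, Cd4 was called in 50 of 222 cells (22.5%, with an interval of 17.2% to 28.6%), and with BD WTA in 49 of 215 (22.8%, 17.4% to 29.0%). The Cd8 call was met by 109 cells with TAS-Seq (49.1%, 42.4% to 55.9%) and by 101 with BD WTA (47.0%, 40.2% to 53.9%). The intervals of the libraries overlapped for both coreceptors. There were 2.28 Cd8-only cells for each Cd4-only cell in the TAS-Seq library (105 and 46 cells) and 2.08 in the BD WTA library (100 and 48 cells).

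**Figure D1:**
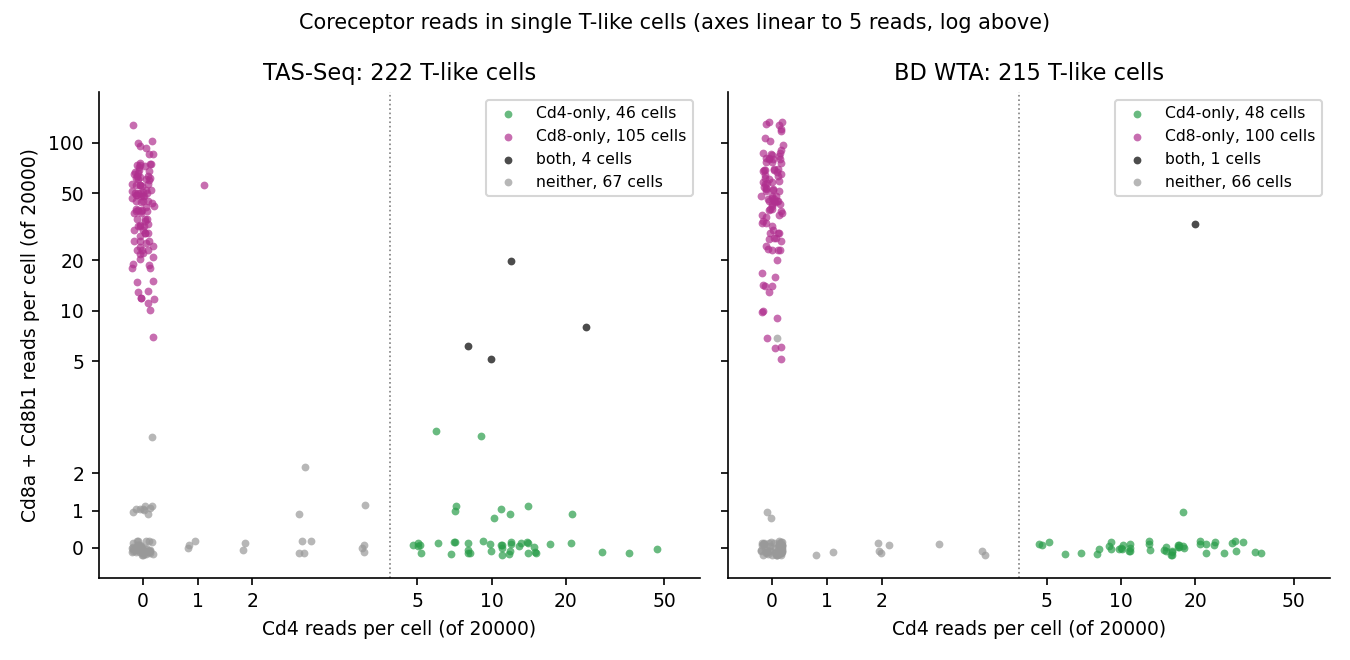
Reads of Cd4 (x axis) and of Cd8a and Cd8b1 together (y axis) in each T-like cell thinned to 20000 reads, for TAS-Seq (left) and BD WTA (right); both axes are linear up to 5 reads and logarithmic above, and points are spread slightly so that cells at the same count can be seen. Cd8-only cells (105 and 100) lie at 0 or 1 Cd4 read, Cd4-only cells (46 and 48) lie at the foot of the y axis, and 4 TAS-Seq cells and 1 BD WTA cell lie between.

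Cells with both coreceptors were rare. They numbered 4 of 222 T-like cells in the TAS-Seq library (1.80%, 0.493% to 4.55%) and 1 of 215 in the BD WTA library (0.465%, 0.0118% to 2.56%). If the calls of Cd4 and Cd8 had fallen on cells independently, 24.5 and 23.0 such cells would be counted. In all 5 cells the Cd8 call rested on Cd8b1, which had 6, 8, 5 and 20 reads in the 4 cells of the TAS-Seq library and 33 reads in that of the BD WTA library. Cd8a had 0 reads in each of the 5 cells, so no T-like cell of either library combined at least 5 reads of Cd4 with at least 5 of Cd8a, which allows a share of up to 1.35% and 1.40%. Cd4 had 8, 24, 10 and 12 reads in the first 4 and 20 reads in the last. None of the 5 was called a doublet by Scrublet, they stood at percentiles 16.7 to 59.5 of the T-like cells of their library by reads, and the 6 B-cell markers together had 0 to 9 reads in each. Whether these cells are pairs of cells caught together was not tested further.

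No coreceptor was called in 67 cells with TAS-Seq (30.2%, 24.2% to 36.7%) and 66 with BD WTA (30.7%, 24.6% to 37.3%). All 6 T-cell markers were read in these cells. The T cell receptor gene Trac had 1052 CPM in them against 1075 CPM in Cd4-only and 723.8 CPM in Cd8-only TAS-Seq cells, and 1221 CPM against 1188 and 988.5 CPM in the BD WTA library. The intervals of cells with neither coreceptor and of Cd4-only cells overlapped for 4 of the 6 markers with TAS-Seq and for 3 of the 6 with BD WTA. The others were lower in cells with neither, namely Cd3g (544.8 against 719.6 CPM) and Trbc2 (1503 against 1718 CPM) with TAS-Seq, and Cd3e (871.2 against 1076 CPM), Cd3d (322.7 against 444.8 CPM) and Trbc2 (2086 against 2296 CPM) with BD WTA. The gamma delta receptor gene Trdc had at least 1 read in 4 of the 67 and in 1 of the 66 cells. Below the calling limit, Cd4 reads were found in 15 of the 67 with TAS-Seq and 9 of the 66 with BD WTA, which is 22.4% and 13.6%, against 4% and 0.303% of B-like cells. Cd8a had reads in 4 and 2 of these cells, and Cd8b1 in 10 and 2. Median depth before thinning was lower in cells with neither coreceptor (45271 and 38315 reads) than in Cd8-only cells (57281 and 45803 reads).

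The share of cells without a coreceptor depended on the number of reads asked for. At 20000 reads per cell and a minimum of 1 read it was 18.9% in the TAS-Seq and 25.1% in the BD WTA library, and at a minimum of 20 reads it was 61.7% and 55.8%. Thinning to 50000 reads kept only the deeper cells, 122 with TAS-Seq and 62 with BD WTA. Of these, 16.4% and 9.68% had neither coreceptor at a minimum of 5 reads. Over all 233 and 232 T-like cells without thinning, the shares at the same minimum were 26.6% and 28.9%. Cd4 was the more sensitive call, since 44 of the 50 called cells had 5 to 19 Cd4 reads with TAS-Seq, and 35 of the 49 with BD WTA. Cd8b1 had at least 20 reads in 67 of 104 and 58 of 88 called cells. With a minimum of 20 reads 2.70% and 6.51% of T-like cells were left with a Cd4 call, against 35.6% and 38.1% with a Cd8 call.

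**Figure D2:**
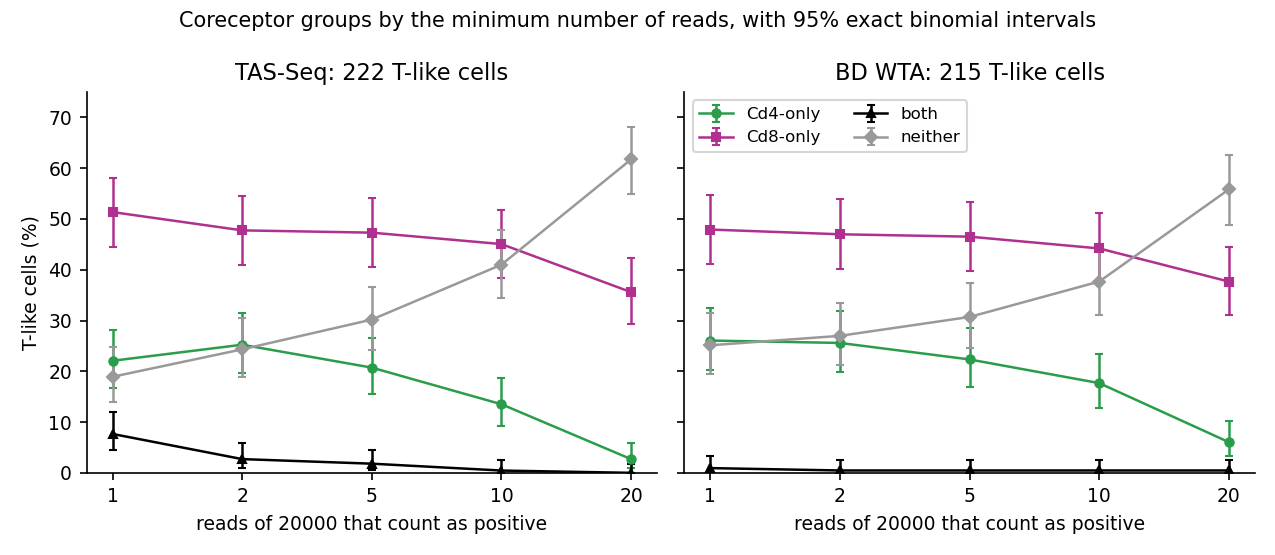
Share of T-like cells (y axis, percent) in each coreceptor group against the number of reads of 20000 that count as positive (x axis), for TAS-Seq (left, 222 cells) and BD WTA (right, 215 cells), with 95% exact binomial intervals as bars. Cd8-only shares change little up to 10 reads, Cd4-only shares are 2.70% and 6.05% at 20 reads, and cells with both stay at or below 7.66% and 0.930%.

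The alpha and beta chain genes of CD8 were found together. Among T-like cells called Cd8, 84 of 109 TAS-Seq cells (77.1%, 68.0% to 84.6%) and 69 of 101 BD WTA cells (68.3%, 58.3% to 77.2%) had at least 5 reads of both Cd8a and Cd8b1. Cd8a alone reached 5 reads in 5 and 13 cells, and Cd8b1 alone in 20 and 19 cells. In cells called for both, the median was 17 Cd8a and 27 Cd8b1 reads of 20000 in the TAS-Seq library and 25 and 32 reads in the BD WTA library. The log2 ratio of Cd8b1 over Cd8a reads within such a cell had a median of 0.56 with TAS-Seq and 0.29 with BD WTA, with middle ranges of -0.20 to 1.14 and -0.71 to 1.48. Most of these cells had more Cd8b1 than Cd8a reads, 57 of 84 and 39 of 69. Across all T-like cells the log2(CPM + 1) values of Cd8a and Cd8b1 had a Pearson r of 0.78 in both libraries, over 233 and 232 cells that share a library, while Cd4 had an r of -0.51 with Cd8a in the TAS-Seq library and -0.50 in the BD WTA library. Thinned to 50000 reads, 89.3% and 90.2% of Cd8 cells had both chains.

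Reads of the other coreceptor in a called cell were compared with those in B-like cells, which should lack both coreceptors. Of Cd8 T-like cells, 5 of 109 in the TAS-Seq library had a Cd4 read (4.59%, 1.51% to 10.4%), close to the 4% of 350 B-like cells. In the BD WTA library it was 1 of 101 (0.990%, 0.0251% to 5.39%) against 0.303% of 330 B-like cells. Cd8a reads were found in 3 of 50 Cd4 cells of the TAS-Seq library (6%) and 5.14% of B-like cells, and in 1 of 49 (2.04%) against 0.606% in the BD WTA library. Cd8b1 reads were the most widespread, in 10 of 50 Cd4 cells (20%, 10.0% to 33.7%) and 14.3% of B-like cells with TAS-Seq, and in 1 of 49 (2.04%) and 3.03% with BD WTA. At 1 read each share in called cells thus had an interval that held the B-like share. These shares take in the cells called for both coreceptors, which make up 4 of the 5 TAS-Seq Cd8 cells with a Cd4 read. At a minimum of 5 reads those 4 cells were 8% of TAS-Seq Cd4 cells for Cd8b1 (2.22% to 19.2%), above the B-like share of 0.286% (0.00723% to 1.58%), and 3.67% of Cd8 cells for Cd4 (1.01% to 9.13%), against 0.857% of B-like cells (0.177% to 2.48%). At 2 reads the TAS-Seq Cd8b1 share was 10% (3.33% to 21.8%) against 1.71% (0.632% to 3.69%). The study's methods describe a background subtraction for TAS-Seq tables, and it is not stated whether it was run on the table used here, so its part in the stray reads of the methods was not tested.

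The coreceptor genes were far lower in B-like than in T-like cells, and the lineage factor genes were not. Cd8a had a pooled level (all reads of a class over its total) of 487.3 CPM in T-like and 3.66 CPM in B-like TAS-Seq cells, and 593.1 and 2.75 CPM with BD WTA, so the B-like level was 0.750% (0.572% to 0.967%) and 0.463% (0.335% to 0.625%) of the T-like level. Cd8b1 had 680.3 and 24.0 CPM with TAS-Seq and 769.8 and 6.58 CPM with BD WTA, or 3.53% and 0.855%. Cd4 had 137.9 and 21.5 CPM with TAS-Seq, or 15.6% (13.9% to 17.5%), but 197.5 and 0.0639 CPM with BD WTA, or 0.0323% (0.000818% to 0.180%), where B-like cells held 1 Cd4 read in all. For the 6 T-cell markers the B-like level was 0.873% to 7.55% of the T-like level with TAS-Seq and 0.223% to 5.85% with BD WTA. Of 5309 genes with at least 20 CPM in T-like cells of both libraries, 1.79% were at least 10-fold higher in T-like than in B-like cells in both, and Cd8a and Cd8b1 were among them. Cd4 was past 10-fold with BD WTA and at 6.41-fold with TAS-Seq.

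A few cells carried most coreceptor reads of the B-like class. In the TAS-Seq library the 5 highest of 363 B-like cells for each gene held 91.5% of the 353 Cd4 reads and 73.9% of the 394 Cd8b1 reads, but 26.7% of the 60 Cd8a reads. In all, 3 B-like cells of that library had at least 5 Cd4 reads at 20000 reads, namely 21, 35 and 14, and the first of them also had 47 Cd8b1 reads. These 3 cells had 0, 2 and 0 reads of the 6 T-cell markers and 6, 2 and 13 reads of the 6 B-cell markers, against a median of 207 B-cell marker reads in the other 347 B-like cells. The genes most raised in them, listed after their values were seen, were Siglech (46, 140 and 57 reads, against 0.721 CPM in the other B-like cells), Runx2 (15, 43 and 29 reads) and Lair1 (24, 49 and 24 reads). Siglech, Ccr9 and Cox6a2, which stood among the 10 most raised genes there, are 3 of the 5 listed markers of plasmacytoid dendritic cells, a cell type in which CD4 is also known in the mouse. Without B-like cells that had at least 5 Siglech reads, an alternative chosen after seeing the data, the B-like level was 2.30% of the T-like level for Cd4 and 1.03% for Cd8b1 in the TAS-Seq library. In the BD WTA library 5 B-like cells had at least 5 reads of a coreceptor gene, of which 2 were called doublets and had 93 and 31 T-cell marker reads, while the other 3 had 6 to 11 Cd8b1 reads and 0 T-cell marker reads.

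Outside the T-like and B-like classes, the 26 NK-like BD WTA cells held 0 reads of Cd4, Cd8a, Cd8b1 and Zbtb7b, with an upper limit of 2.69 CPM for each, while Runx3 had 521.1 CPM (479.6 to 565.3) there. Runx3 was at 159.4 CPM in T-like and 137.7 CPM in B-like cells of the same library, so the NK-like cells held its highest level among the classes of that library, with 64.7% of the reads in 5 cells. In the TAS-Seq cluster led by Il2rb, Cd4 was called in 8 of 66 cells (12.1%), Cd8a or Cd8b1 in 16 (24.2%) and neither coreceptor in 42 (63.6%, 50.9% to 75.1%), an interval above that of the T-like cells. The leading genes of this cluster also included Ccl5, Nkg7, Klrd1 and the listed NK marker Klrk1. At least 5 reads of 2 or more of Cd3e, Cd3d, Cd3g, Trac and Trbc2 were found in 45 of the 66 cells. Whether NK cells are part of the cluster was not tested. Both CD8 chains were called in 11 of its 16 Cd8 cells (68.8%, 41.3% to 89.0%). Levels in the cluster were 287.7 CPM for Runx3, 54.7 CPM for Zbtb7b and 136.4 CPM for the gamma delta receptor gene Trdc. T-like TAS-Seq cells had 146.7, 31.9 and 3.06 CPM. The unnamed BD WTA cluster split at a finer clustering and is not set against the TAS-Seq cluster. At resolution 2 of the clustering 57 of its 86 cells fell in a T-like cluster with Trbc2 and Il2rb among its leading genes, and 28 in a cluster led by the myeloid genes Tyrobp and Fcer1g with 0 of the 6 T-cell markers raised. Of the 53 cells of the first kind with 20000 reads, 14 were called for Cd4, 11 for Cd8 and 29 for neither (54.7%), and of the 23 of the other kind 2, 3 and 18 (78.3%).

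**Figure D3:**
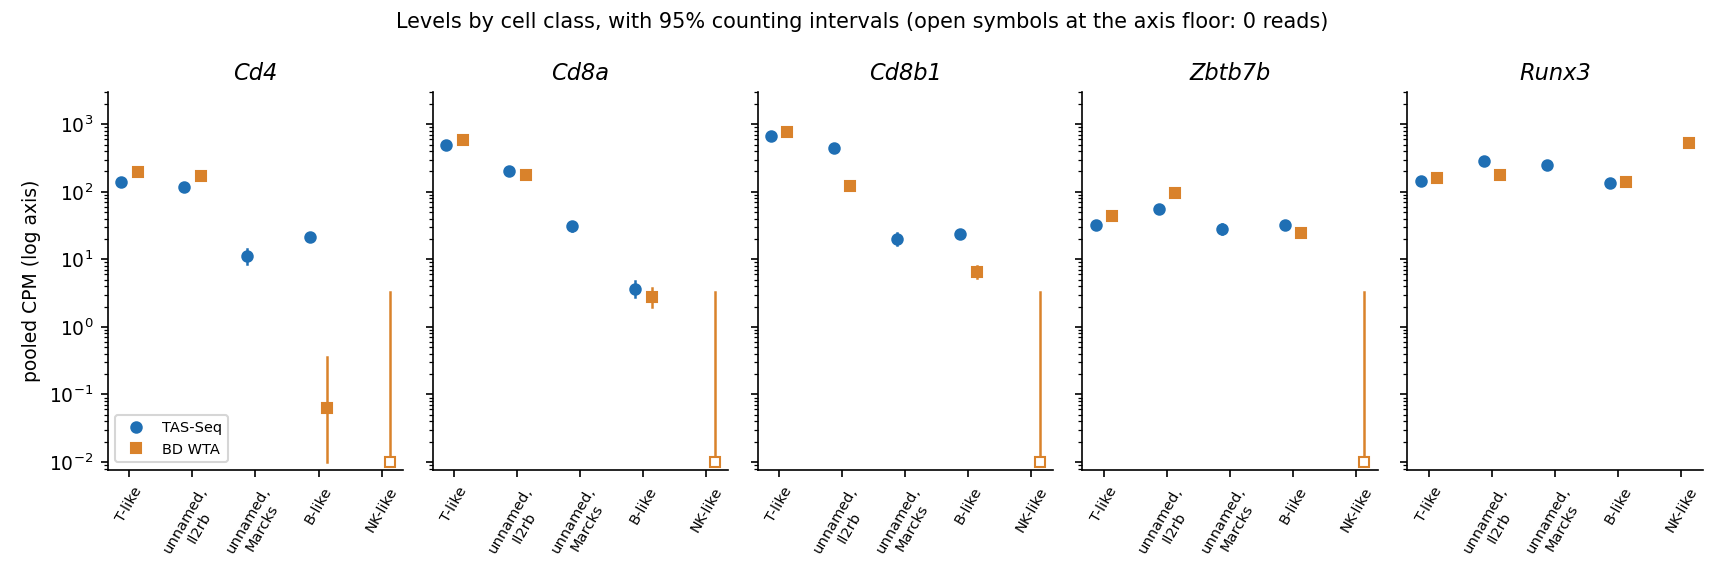
Pooled CPM (log axis) of each gene in the cell classes of the TAS-Seq (circles) and BD WTA (squares) libraries, with 95% exact Poisson intervals for counting error; open symbols at the foot of the axis stand for 0 reads, and the unnamed clusters with Il2rb are led by different genes in the libraries (Il2rb and Fyb). The coreceptor genes stand lower in the B-like than in the T-like class, with Cd4 at 0.0639 and 197.5 CPM in the BD WTA library, while Zbtb7b and Runx3 stay within the same decade in both classes.

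Zbtb7b was higher in Cd4-only than in Cd8-only T-like cells in both libraries. In cells thinned to 20000 reads it had 33.7 CPM (22.9 to 47.8) in Cd4-only and 6.67 CPM (3.65 to 11.2) in Cd8-only TAS-Seq cells, a log2 ratio of 2.34 (1.38 to 3.36). In the BD WTA library it had 85.4 CPM (67.9 to 106.0) in Cd4-only cells and 0 reads in 100 Cd8-only cells, so at its measured level it was at least 56.9-fold higher, with 3 reads over the group set as the floor. On the log2 scale this is 5.83, or 5.50 when the lower limit of the Cd4-only level is used. Reads of Zbtb7b were found in 8 of 46 and 10 of 48 Cd4-only cells (17.4% and 20.8%) and in 3 of 105 and 0 of 100 Cd8-only cells, where 0 of 100 allows a share of up to 3%. The cells with reads were few, and 5 of them held 80.7% and 82.9% of the reads in Cd4-only cells. Without the 5 cells of each group with the most reads, the BD WTA log2 ratio was 3.37. Cells with neither coreceptor had 53.0 CPM (41.4 to 66.8) and 73.5 CPM (59.6 to 89.7), and reads in 13 of 67 and 8 of 66 cells. The log2 ratio of Cd4-only over these cells was -0.65 (-1.31 to -0.025) with TAS-Seq and 0.22 (-0.23 to 0.66) with BD WTA. B-like cells thinned to the same depth had 33.9 and 25.9 CPM. Of all T-like cells with at least 5 Zbtb7b reads, 3 of 10 TAS-Seq and 6 of 12 BD WTA cells were Cd4-only, 2 and 0 were Cd8-only, 2 and 0 had both coreceptors, and 3 and 6 had neither.

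Runx3 gave opposite directions in the libraries. In the TAS-Seq library it had 67.4 CPM (51.7 to 86.4) in Cd4-only and 175.7 CPM (158.2 to 194.6) in Cd8-only cells, a log2 ratio of -1.38 (-1.80 to -0.99). In the BD WTA library it had 167.7 CPM (142.8 to 195.7) and 126.0 CPM (110.9 to 142.6), a log2 ratio of 0.41 (0.12 to 0.70). The BD WTA ratio turned to -0.33 with a minimum of 1 read, to -0.69 with a minimum of 20 reads and to -0.30 without the 5 cells of each group with the most Runx3 reads, while the TAS-Seq ratio was negative under every alternative run, from -2.57 to -0.50. Runx3 reads were found in 30.4% of Cd4-only and 41.0% of Cd8-only cells with TAS-Seq and in 12 of 48 and 21 of 100 with BD WTA, against 30.9% and 21.5% of B-like cells. In Cd4-only cells 5 cells held 71.0% and 68.9% of the Runx3 reads. Cells with both Zbtb7b and Runx3 reads numbered 10 of 222 and 5 of 215, near the 9.49 and 4.02 that independent detection would give.

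**Figure D4:**
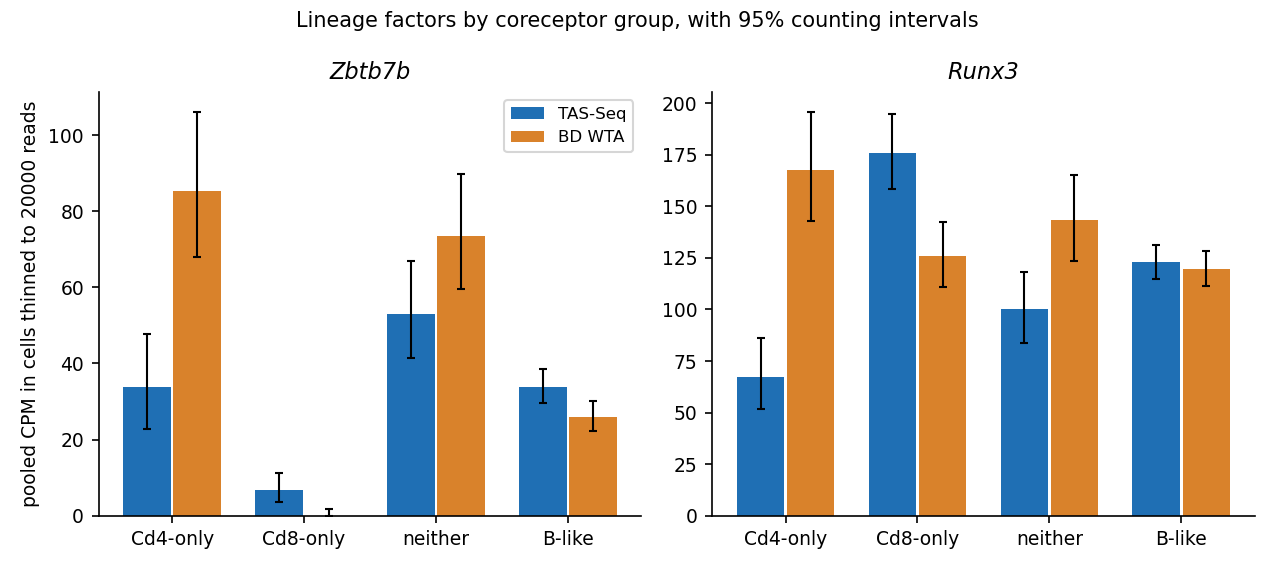
Pooled CPM of Zbtb7b (left) and Runx3 (right) in Cd4-only, Cd8-only and coreceptor-negative T-like cells and in B-like cells, all thinned to 20000 reads; bars start at 0 and error bars are 95% exact Poisson intervals for counting error. Zbtb7b is lowest in Cd8-only cells of both libraries (6.67 and 0 CPM), while Runx3 is highest in Cd8-only cells with TAS-Seq (175.7 CPM) and in Cd4-only cells with BD WTA (167.7 CPM).

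Both lineage factor genes were also read in B-like cells, Zbtb7b in 8.29% and 7.27% and Runx3 in 30.9% and 21.5% of them at 20000 reads. Zbtb7b had 31.9 CPM in T-like and 32.7 CPM in B-like TAS-Seq cells, and 43.3 and 24.2 CPM with BD WTA, so the B-like level was 102.7% (90.1% to 117.1%) and 55.9% (48.6% to 64.4%) of the T-like level. Runx3 had 146.7 and 136.7 CPM with TAS-Seq and 159.4 and 137.7 CPM with BD WTA, or 93.1% and 86.4%. In B-like cells 5 cells held 35.9% and 37.2% of the Zbtb7b reads and 22.1% and 16.1% of the Runx3 reads, a wider spread over cells than that of Cd4 with TAS-Seq. Cells with at least 5 reads of Runx3 made up 18.3% and 14.8% of B-like cells and 19.8% and 16.7% of T-like cells. In the unnamed TAS-Seq cluster led by Marcks, which had 5 of 6 B-cell markers raised, Runx3 was at 245.0 CPM and Zbtb7b at 27.95 CPM.

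Genes other than the coreceptors were then compared between Cd4-only and Cd8-only cells by their pooled levels, since the groups were made from Cd4, Cd8a and Cd8b1 alone. Of 6034 genes with at least 20 CPM in a group of each library, 229 (3.8%) were at least 2-fold higher in Cd4-only cells in both libraries and 235 (3.89%) at least 2-fold lower. Zbtb7b was among the 229 and Runx3 was in neither set. Groups with 0 reads of a gene were set at a floor of 3 reads over the group. Such ratios take the other group at its measured level and leave out its counting error. Cd40lg, which encodes the ligand that helper T cells show to B cells, ranked first by the smaller ratio of the libraries. It had 122.8 CPM in Cd4-only cells and 1 read in Cd8-only cells with TAS-Seq, a log2 ratio of 8.01 (5.50 to 13.3). With BD WTA it had 133.3 CPM against 0 reads, a log2 ratio of at least 6.47 at that measured level. It was followed by Tesc (3.36 and 5.28), which encodes the calcium-binding protein tescalcin, Calcrl (3.48 and 2.86), which encodes a receptor for calcitonin gene-related peptide and adrenomedullin, and Ints7 (3.0 and 2.37). Zbtb7b came next (2.34 and 5.83), then Ranbp10 (2.29 and 4.67), Pafah1b2 (2.27 and 3.87), Ly6a (3.21 and 2.12), Ctdp1 (2.14 and 2.11) and Arid5b (2.06 and 2.08). Reads of Calcrl, Ints7, Ctdp1 and Arid5b were each found in only 10.4% to 13.0% of the Cd4-only cells of a library, so their ratios rest on few cells. Cd40lg was read in 32.6% of Cd4-only cells with TAS-Seq but in 12.5% with BD WTA, so its BD WTA ratio also rests on few cells. Ly6a, which encodes the surface protein Sca-1, was at 163.0 and 17.6 CPM with TAS-Seq and 187.5 and 43.0 CPM with BD WTA.

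Nkg7 stood first of the 10 genes on the Cd8 side. This gene, which encodes a protein of cytotoxic granules, had 509.0 CPM in Cd8-only and 4.35 CPM in Cd4-only TAS-Seq cells, and 461.0 CPM and 0 reads in BD WTA cells, with log2 ratios of -6.87 and, at the floor, -7.20. It had reads in 74.3% and 64.0% of Cd8-only cells. Klrd1, the NK receptor chain CD94, had log2 ratios of -4.30 and -4.14, Ctsw, which encodes cathepsin W, -3.47 and -5.42, and Itgae, the integrin chain CD103, -4.53 and -3.77. The chemokine receptor genes Ccr9 (-3.31 and -6.33) and Cxcr6 (-4.47 and -5.23) were also lower in Cd4-only cells. Cxcr6 and Itgae had 0 reads in Cd4-only cells of both libraries, and Ccr9 in those of the BD WTA library. The other 4 genes of the 10 had 0 to 5 reads in the Cd4-only cells of each library, which is too few for a firm ratio. The same holds for Nkg7, Cxcr6 and Itgae in both libraries, and for Ctsw and Ccr9 with BD WTA. In Cd8-only cells Fam241a had 120.5 and 72.0 CPM, Adgrg5 77.1 and 129.0 CPM, Racgap1, which encodes a protein of cell division, 40.95 and 69.0 CPM, and Trim39 27.1 and 71.0 CPM.

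**Figure D5:**
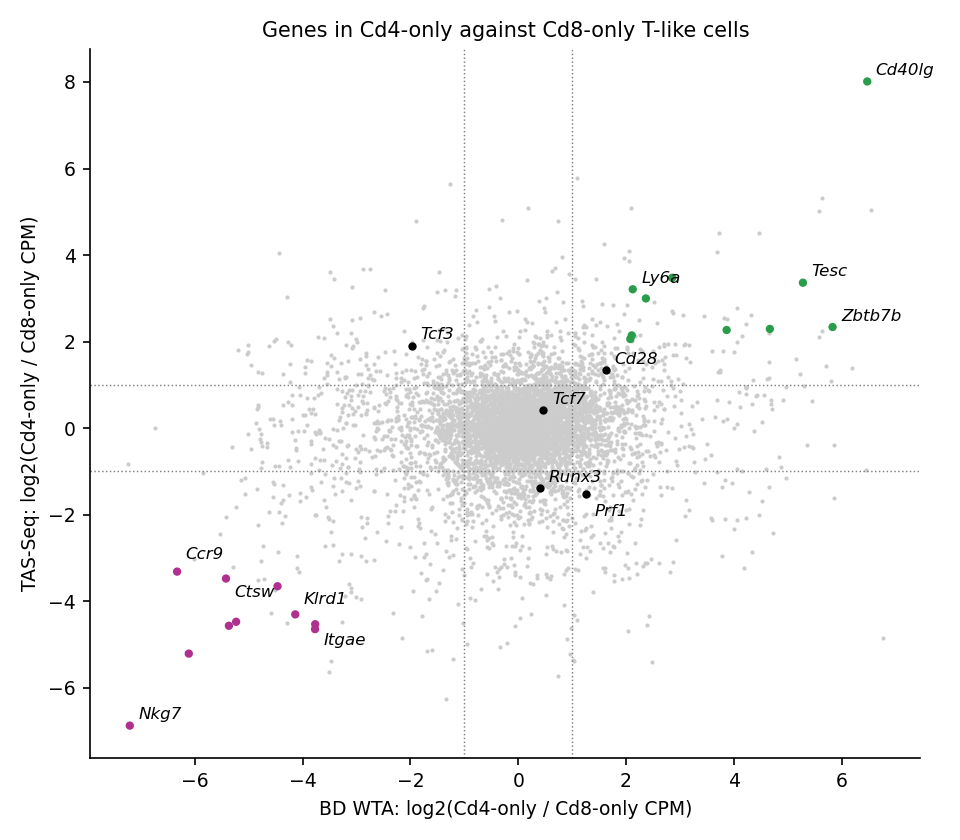
Log2 ratio of pooled CPM in Cd4-only over Cd8-only T-like cells for 6034 genes, BD WTA on the x axis and TAS-Seq on the y axis; green and purple points are the 10 genes most raised on each side in both libraries among those with a read in at least 10% of the cells of the higher group, and dotted lines mark 2-fold. Cd40lg (6.47 and 8.01) and Zbtb7b (5.83 and 2.34) stand at the upper right, Nkg7 (-7.20 and -6.87) at the lower left, and Runx3, Tcf3 and Prf1 have opposite signs in the libraries.

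Gene lists around the coreceptors were counted in the same comparison. They were chosen with earlier results of these data known, and a gene could reach the level minimum through its higher group alone. The counts and medians of the lists are therefore a description and no test. Over all 6034 genes, 3.8% were at least 2-fold higher and 3.89% at least 2-fold lower in Cd4-only cells in both libraries. Of 13 helper and regulatory genes, 5 reached the level minimum, of which 3 were at least 2-fold higher in Cd4-only cells in both libraries and 0 at least 2-fold lower, with a median log2 ratio of 1.33 with TAS-Seq and 1.56 with BD WTA, against -0.0028 and 0.014 over all 6034 genes. These were Cd40lg, Izumo1r (2.86 and 1.56), which encodes folate receptor 4, and the costimulatory receptor gene Cd28 (1.33 and 1.62). Foxp3, the factor of regulatory T cells, did not reach the minimum and had 0 reads in both TAS-Seq groups, while its 36 reads in BD WTA Cd4-only cells lay in 1 cell. Of 19 cytotoxic and CD8 genes 8 reached the minimum, and 6 of them were at least 2-fold lower in Cd4-only cells in both libraries and 0 higher, with medians of -3.89 and -4.21. The 6 were Nkg7, Ctsw, Ccl5 (-4.49 and, at the floor, -4.29), Klrd1, Itgae and Il2rb (-1.60 and -4.55). Ccl5 was read in 21.7% of Cd4-only and 25.7% of Cd8-only TAS-Seq cells, and in 0% and 7.0% with BD WTA. Itgae was read in only 10.5% and 10.0% of Cd8-only cells. The listed granzyme genes stayed under the level minimum and had 0 reads in both BD WTA groups. In TAS-Seq cells Gzmm had 31 reads in the Cd8-only and 1 in the Cd4-only group, Gzma 12 and 0, Gzmb 2 and 0, and Gzmk 0 in both.

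Of 20 genes of the lineage network 18 reached the minimum, and 1 was past 2-fold in both libraries. Over all 6034 genes 3.8% were higher and 3.89% lower by that rule. The 1 gene was Eomes, a T-box factor of memory-type CD8 cells, at -3.04 and, at the floor, -2.68. It had 4 reads in Cd4-only and 75 in Cd8-only cells with TAS-Seq, and 0 and 40 with BD WTA. Its reads lay in 10.5% and 7.0% of Cd8-only cells. Tcf7 (0.41 and 0.47), Satb1 (0.41 and 0.47), Bcl11b (0.67 and 0.41) and Ets1 (0.69 and 0.30), which encode factors of T cell identity, stayed below 2-fold. Their intervals lay above 0 in both libraries, but these count reads and leave out the spread between cells, so no lineage difference can be read from them. Lef1, a factor related to Tcf7, was at -0.14 and 0.09, with intervals that held 0. Cbfb, the partner of RUNX proteins, was at -0.56 (-0.97 to -0.16) and -0.33 (-0.72 to 0.050). In total 8 of the 18 were higher in both libraries, 4 lower in both and 6 of opposite sign, with medians of 0.15 and 0.22. Runx1 (0.12 and -0.31) was below 2-fold, and Runx2 stayed under the minimum. The kinase gene Lck differed by 0.17 and 0.08. The class I ligand genes B2m, H2-K1 and H2-D1, whose products present peptide to CD8 cells, differed by -0.13 to 0.40. The class II genes H2-Aa, H2-Ab1 and H2-Eb1 belonged to B-like cells, where H2-Aa had 4362 and 5605 CPM against 49.3 and 5.12 CPM in T-like cells.

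The pattern of each gene over single T-like cells was compared with 4219 genes. Nkg7 was the gene most like Cd8a and Cd8b1 after the partner chain, with r of 0.64 and 0.57 to Cd8a and 0.63 and 0.63 to Cd8b1 in the TAS-Seq and BD WTA libraries. Ccr9 (0.44 and 0.46 to Cd8a, 0.44 and 0.43 to Cd8b1) and Ctsw (0.40 and 0.43, and 0.40 and 0.41) came next, then Klrd1 for Cd8a (0.43 and 0.35) and Epsti1 for Cd8b1 (0.40 and 0.36). For Cd4 the gene with the highest lower r was Zbtb7b (0.31 and 0.22), followed by Cd5 (0.21 and 0.23), Hnrnpdl, Ski and Trat1, and the same value made Cd4 the first gene for Zbtb7b, before Ass1, Fam102a, Abce1 and Ptpn7. For Runx3 no gene passed an r of 0.20 in both libraries, and Ccdc25 (0.19 and 0.20), Glipr2, 1600014C10Rik, Kdm1a and Hnrnpr stood first. Runx3 had an r of 0.14 and 0.10 with Cd8a and of -0.06 and 0.01 with Cd4. These values describe cells of 1 library each, which share depth and sparse counts.

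Between the methods the 5 genes differed by less than 2-fold in T-like cells. TAS-Seq levels set over BD WTA levels gave log2 ratios of -0.52 (-0.61 to -0.42) for Cd4, -0.28 (-0.34 to -0.23) for Cd8a, -0.18 (-0.22 to -0.13) for Cd8b1, -0.44 (-0.64 to -0.24) for Zbtb7b and -0.12 (-0.22 to -0.02) for Runx3. Of 7071 genes with at least 20 CPM in a library 21.9% were at least 2-fold apart and the median log2 ratio was 0.09. The ratios of Cd8a and Cd8b1 had the opposite sign, 0.050 and 0.14, when clusters were made at resolution 2. With TAS-Seq the pooled levels were lower, but a larger share of T-like cells had a read at 20000 reads, 36.5% against 22.3% for Runx3, 55.0% against 44.7% for Cd8b1 and 29.7% against 27.0% for Cd4. The intervals of these shares overlapped for Cd8b1 and Cd4 and did not for Runx3. At the call of 5 reads the Cd4 shares were 22.5% and 22.8%. Levels in positive cells were lower with TAS-Seq, with a median of 381.7 CPM against 714.6 CPM in cells with a Cd4 read before thinning. The share of B-like cells with a Cd8b1 read was also higher with TAS-Seq, 14.3% against 3.03%, and its part in the difference was not tested.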

How the data were processed

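The 2 tables of counts were analysed, 1 per amplification method. Per the study's methods, the authors trimmed reads with cutadapt, mapped them in the forward direction to Ensembl transcripts of GRCm38 with Bowtie2 and deposited read counts per gene and cell barcode without molecular identifiers, for barcodes above the inflection point. The submitters' processing notes list cutadapt 2.10, Bowtie2 2.4.2 and R 3.6.3, and the methods name other versions of cutadapt and R. For TAS-Seq tables they also name distribution-based error correction, a removal of background counts, without stating whether it was run on the table deposited here. Reads therefore count amplified copies, and amplification differences between the methods enter every level.

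Cells with at least 500 genes and at most 25% mitochondrial reads were kept, with genes found in at least 5 cells. Each library was clustered in Seurat 5.3.0 (R 4.3.3, 20 components, resolution 1) without the 5 genes, and clusters were named from listed markers. Scrublet (scanpy 1.11.5, Python 3.11.15) marked 3 and 4 doublets, which were kept. Cells were thinned to 20000 reads with a fixed seed. Shares carry exact binomial and levels exact Poisson 95% intervals. Scripts were tested on simulated data. Gene positions came from GENCODE vM21, and edgeR 4.0.16 gave TMM factors for 1 alternative. Depth was 15378 to 262041 reads per barcode with TAS-Seq and 11936 to 291602 with BD WTA.

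Named genes were the 10 most raised on each side of the Cd4-only and Cd8-only comparison, by the smaller ratio of the libraries, from a level of 20 CPM up and with reads in no less than 10% of cells of the higher group, the 5 genes most correlated with each member (log2(CPM + 1), genes read in at least 10% of T-like cells) and the listed genes. The 5 genes, the lists and the rules were chosen with earlier results of these data known. All columns were cell barcodes of these libraries.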

Additional observations from a re-analysis of the deposited data

Results flagged for a closer look

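Runx3, Tcf3 and Prf1 lay on opposite sides of the Cd4-only and Cd8-only comparison in the libraries, with counting intervals clear of 0 in each. The log2 ratio of Cd4-only over Cd8-only cells was -1.38 with TAS-Seq and 0.41 with BD WTA for Runx3. For Tcf3, which encodes an E protein of lymphocyte development, it was 1.91 with TAS-Seq and -1.96 with BD WTA. For Prf1, which encodes perforin, it was -1.51 with TAS-Seq and 1.25 with BD WTA. The difference between the libraries was not tested, because each method has 1 library, and counting intervals leave out the spread between cells, libraries and amplifications. Reads of Tcf3 and Prf1 lay in few Cd4-only cells of the BD WTA library, 1 of 48 and 6 of 48. Runx3 was read in 12 of the 48 Cd4-only and 21 of the 100 Cd8-only cells there. The BD WTA ratio of Runx3 changed sign under some alternatives, which are given below.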

How the results depend on the processing

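Over 37 results, 342 alternative values were computed, of which 223 stayed within the counting interval of the reported value (for counts of genes, within 1.5 times), 113 moved outside it and 6 changed sign. The cause of these shifts was not tested, except that a higher minimum of reads, fewer reads per cell and a call from Cd8a alone leave fewer cells positive by construction. No paired analysis was possible because only 1 library stands for each method, and no replicate could be left out. The fold of Zbtb7b by mean CPM over cells had no value in the BD WTA library, where Cd8-only cells had 0 reads.

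With a minimum of 1 read, TAS-Seq shares of T-like cells were 29.7% for Cd4, 59.0% for Cd8, 7.66% for both and 18.9% for neither, and 78.1% of BD WTA Cd8 cells had both chains, against 77.5% with a minimum of 2 reads. With 10 reads, Cd4 was at 13.96%, both at 0.451% and neither at 41.0% with TAS-Seq, neither was at 37.7% with BD WTA, and both chains were found in 59.4% and 56.2% of Cd8 cells. With 20 reads, Cd4 was at 2.70% and 6.51%, Cd8 at 35.6% and 38.1%, both at 0% with TAS-Seq, neither at 61.7% and 55.8%, and both chains at 36.7% and 32.9%. At 10000 reads per cell, Cd4 was at 12.4% with TAS-Seq, neither at 44.2% and 39.2%, and both chains at 67.0% and 56.6%. At 50000 reads, which only 122 and 62 T-like cells reached, Cd8 was at 61.5% and 66.1% and neither at 16.4% and 9.68%. In those cells both was at 0% with BD WTA, and both chains at 89.3% and 90.2%. Calling Cd8 from Cd8a alone gave 40.1% and 38.1% for Cd8, 0% and 0% for both and 37.4% and 39.1% for neither. Counting the unnamed clusters with Il2rb among their leading genes as T-like, an alternative chosen after seeing the data, gave 39.4% for Cd8 with BD WTA and 37.9% and 39.0% for neither. Stray Cd8a reads were in 0% of BD WTA Cd4 cells and Cd8b1 reads in 10% of TAS-Seq Cd4 cells when 2 reads were asked for, and in 0% and 0% for Cd8a and 8% for Cd8b1 with TAS-Seq when 5 were.

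The Zbtb7b log2 ratio of Cd4-only over Cd8-only cells was positive under every alternative that gave a value. With TAS-Seq it was 3.597, 3.40 and 0.98 with a minimum of 1, 2 and 20 reads, 4.71 and 4.20 at 10000 and 50000 reads per cell, 4.03 without thinning and 4.03 with Cd8a alone. With BD WTA it was 3.38 with 20 reads, 5.16 and 5.26 at 10000 and 50000 reads and 3.37 without the 5 cells with the most reads of each group. The Runx3 ratio with TAS-Seq was -1.80 and -2.48 with 10 and 20 reads, -2.52 and -0.68 at 10000 and 50000 reads, -0.50 with cells chosen one by one by markers, -2.57 without the 5 highest cells and -0.55 with the cluster led by Il2rb. With BD WTA it changed sign to -0.33 with 1 read, -0.69 with 20 reads and -0.30 without the 5 highest cells, and was 0.10 with Cd8a alone.

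The B-like level as a percentage of the T-like level was recomputed in the same way. Without the 5 highest cells of each class it was 1.76% and 0% for Cd4, 0% for Cd8a with BD WTA, 1.03% and 0.152% for Cd8b1, 122% and 83.9% for Zbtb7b and 96.1% for Runx3 with BD WTA. With cells chosen one by one by markers it was 2.04% for Cd4, 1.02% for Cd8b1, 85.1% for Zbtb7b and 103% for Runx3 with TAS-Seq, and 0% for Cd8a and 48.0% for Zbtb7b with BD WTA. By mean CPM over cells it was 7.18% for Cd4 and 2.09% for Cd8b1 with TAS-Seq, and 0.277% for Cd8a and 76.5% for Runx3 with BD WTA. Leaving out B-like cells with Siglech gave 2.30% and 1.03% for Cd4 and Cd8b1 with TAS-Seq, and leaving out doublets gave 0.0107% and 0.671% for Cd8a and Cd8b1 with BD WTA. Cd8a was at 1.46% with BD WTA at resolution 0.5. At resolution 2, Cd8b1 was at 1.08% and Zbtb7b at 44.3% with BD WTA, and Runx3 at 99.97% and 80.9%.

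The log2 ratio between the methods changed sign for Cd8a at resolution 2 (0.050) and for Cd8b1 at resolution 2 (0.14) and with cells chosen by markers (0.016). At resolution 0.5 it was -0.22 for Cd8a, -0.062 for Cd8b1 and -0.67 for Zbtb7b, and at resolution 2 -0.72 for Zbtb7b and -0.40 for Runx3. With cells chosen by markers it was -0.21 for Cd8a and -0.70 for Zbtb7b. Without the 5 highest cells it was -0.21 for Cd8a, -0.12 for Cd8b1 and -0.077 for Zbtb7b. By mean CPM over cells it was -0.10 for Cd8b1 and -0.34 for Runx3, and with TMM factors -0.35 for Cd8a and -0.25 for Cd8b1. Genes at least 2-fold higher and lower in Cd4-only cells numbered 590 and 658 without a level minimum and 22 and 19 at 100 CPM, and 39 and 64 genes were past 4-fold.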
